A study of Sus scrofa with 6 samples.

Results

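Glycosyltransferases and the genes that assemble N-glycans were compared between IPEC-1 and IPEC-J2, a pair of spontaneously immortalised epithelial cell lines from the pig small intestine. The genes were taken by symbol from the named genes of the Affymetrix Porcine Genome Array: the ALG and DPM genes of the lipid-linked sugar chain, the subunits of the oligosaccharyltransferase, the MAN1 and MAN2 alpha-mannosidases, the MGAT, B3G and B4G genes, sialyl- and fucosyltransferases, the GALNT genes and the PIG genes of the glycosylphosphatidylinositol (GPI) anchor. This gave 66 of 6765 genes, represented by 95 probe sets. Each line was measured on 3 arrays, and every array held RNA from a single culture of untreated, polarised cells on membrane inserts. The labels give the same medium, a temperature of 39 °C, passages 78 to 98 and 7 days on the membrane for both lines, while the study's methods state a longer culture. A single cell bank number stands in the labels for both lines, whereas the methods list a number for each, and lines were taken from the titles. Each line is 1 immortalised line, so the arrays measure the spread between cultures of a line and not between pigs.

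N-glycans are built as a lipid-linked chain on dolichol in the membrane of the endoplasmic reticulum, moved as a block to asparagines of growing proteins by the oligosaccharyltransferase, trimmed by glucosidases and mannosidases, and then branched, extended and capped in the Golgi apparatus. Many of the Golgi enzymes that add galactose, sialic acid or fucose also act on mucin-type O-glycans and glycolipids. In the intestinal epithelium these chains cover the apical surface and mucins and serve as attachment sites for bacteria and viruses. The GPI anchor is built on a lipid by a separate set of enzymes and draws on the same mannose donor.

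All values below were read as log2 signals. Values of exactly 4.00 are the floor of the deposited table and carry no order. Signals of different genes were not compared, since each probe set binds with its own strength. The fit with limma over all 6765 genes called a gene at a Benjamini-Hochberg adjusted p under 0.05. Of the 66 glycan genes, 57 were above the floor on at least 1 array, and ALG14, DPM2, MAN1C1, MAN2B2, ST3GAL2, ST3GAL3, ST6GALNAC5, B3GNTL1 and B3GLCT were at the floor on every array.

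Of all probe sets, 42.1 to 44.5% had the floor value on an IPEC-1 array and 40.5 to 48.3% on an IPEC-J2 array, most of all on IPEC-J2 replicate 1. That array was also the lowest of the 3 IPEC-J2 arrays for 43 of the 57 glycan genes above the floor. EPCAM, which defines epithelia, had means of 13.39 in IPEC-1 and 13.55 in IPEC-J2. All 8 epithelial markers on the array were above the floor on at least 1 array, but they did not all stay level. VIL1 (6.99 in IPEC-1, 13.89 in IPEC-J2, adjusted p = 0.0367) and HNF4A (4.60 and 8.68, adjusted p = 0.00244) were higher and KRT19 (13.08 and 12.28, adjusted p = 0.00223) was lower in IPEC-J2, and TJP1 left the floor on IPEC-1 replicates 1 and 3 alone. All 6 markers of mature enterocytes, among them FABP2, ANPEP and DPP4, were at the floor throughout. The defining leukocyte marker PTPRC and the endothelial markers CDH5, KDR, VWF and TEK were also at the floor throughout, while AIF1 of leukocytes was at 10.36 and 10.55, and CD3E (5.93 and 4.00, adjusted p = 0.00346) and PECAM1 of endothelium (5.75 and 4.29, adjusted p = 0.0307) were dim and lower in IPEC-J2. The summed leukocyte markers reached at most 10.62 in IPEC-1 and lay between 10.48 and 10.70 in IPEC-J2, and the endothelial ones ranged from 5.65 to 5.88 and from 4.00 to 4.87. Of 6 fibroblast markers, COL3A1, DCN and LUM were at the floor throughout, COL1A2 was at 5.94 and 5.91, PDGFRB at 5.55 and 4.71, and THY1 alone was higher in IPEC-J2 (4.00 and 9.55), which carried the summed fibroblast signal (range 6.43 to 6.58 in IPEC-1 and 9.51 to 9.89 in IPEC-J2). Of 4 smooth muscle markers, TAGLN was at 9.34 and 6.12 (adjusted p = 0.145) and the others were at the floor. The part of these markers in the results below was not tested.

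In comparison to IPEC-1, 10 glycan genes were up-regulated and 5 were down-regulated in IPEC-J2. The up-regulated genes were ALG8 and ALG9 of the dolichol-linked chain, the oligosaccharyltransferase subunit TUSC3, the branching enzyme MGAT4B, the extension enzymes B3GNT3 and B4GALT1, the sialyltransferase ST8SIA4, the O-glycan enzyme GALNT7, and PIGQ and PIGU of the GPI anchor. The down-regulated genes were the oligosaccharyltransferase subunits OSTC and OST4, the galactosyltransferase B4GALT4, and PIGF and PIGP of the GPI anchor. The share of higher genes was 15.2% of the glycan genes beside 9.46% of all genes tested, and that of lower genes was 7.58% beside 11.2%. All 3 IPEC-J2 arrays lay above all 3 IPEC-1 arrays for 17 glycan genes (25.8%, beside 16.2% of all genes) and below them for 13 (19.7%, beside 22.5% of all genes). The median log2 difference of the 57 glycan genes above the floor was 0.08 beside -0.05 for the 5513 such genes of the whole array. Of the 42 genes above the floor that were not called, 14 had an unadjusted p under 0.05. The counts by role below cover few genes each and are to be read beside the shares of all genes given here. With the probe sets tested singly, 8 of the 95 were higher (5.58% of all probe sets) and 5 lower (6.24% of all probe sets).

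**Figure D1:**
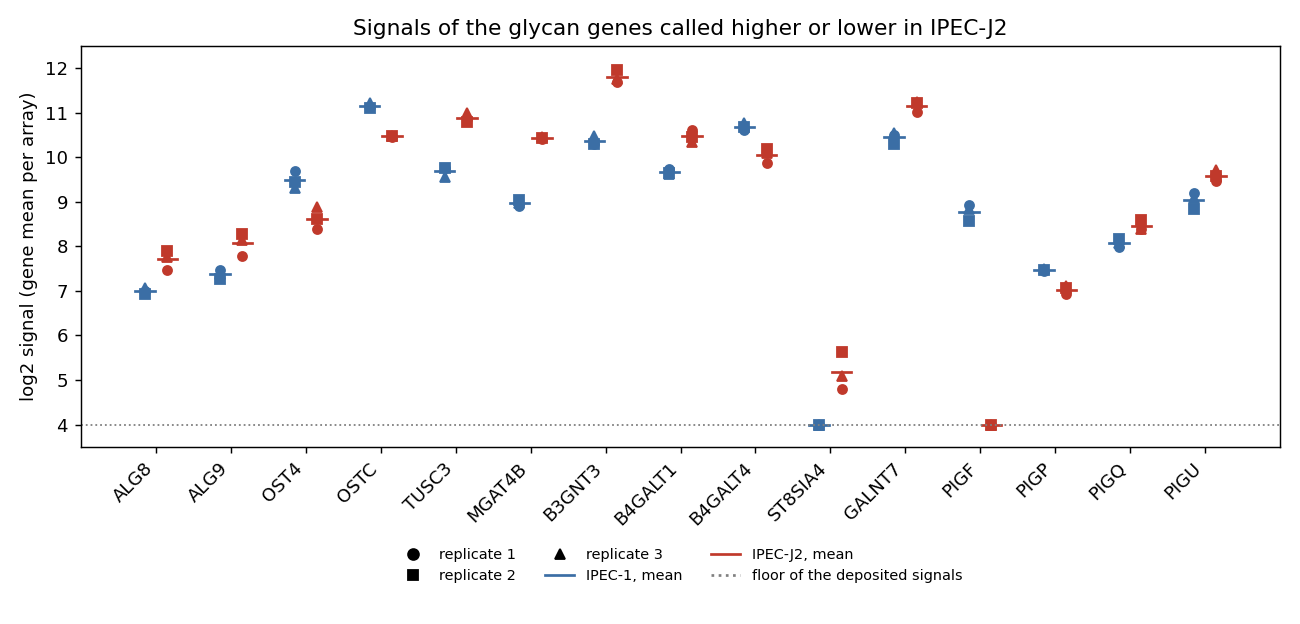
Log2 signal on each of the 6 arrays (blue IPEC-1, red IPEC-J2, with 1 symbol per replicate) for the 15 glycan genes that passed the test, with bars at the means. The 3 IPEC-J2 arrays lie above the 3 IPEC-1 arrays for 10 genes and below them for 5, and PIGF lies at the floor of 4.00 on every IPEC-J2 array (heights of different genes are not comparable).

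The called genes did not hold equally well. MGAT4B, B3GNT3, TUSC3, OSTC and PIGF, 5 of the 15, passed whichever 1 array was left out and also with the culture note of the labels as a block. This note is shared by IPEC-1 replicate 1 and IPEC-J2 replicate 3 (note A) and by IPEC-1 replicate 2 and IPEC-J2 replicate 1 (note B). The remaining arrays carry no note, and nothing in the labels links them. They were put together as the third pair of the block. With the arrays of notes A and B only, all 15 calls were lost. All 15 genes kept the same sign of difference within note A and within note B. This fit has fewer arrays and so less precision, and the loss alone does not tie the calls to the note. B4GALT1 and PIGP passed without any 1 array but not with the block, and GALNT7 and PIGU passed with the block but not without every array.

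The early steps, in which the dolichol-linked chain is built, showed 2 of 8 genes higher and none lower, with 6 genes above the floor and a median difference of 0.35. ALG9 adds mannose to the growing chain, and ALG8 adds glucose near its end. For ALG8, the signals were 7.00, 6.94 and 7.06 in IPEC-1, against 7.48, 7.90 and 7.75 in IPEC-J2. For ALG9, they were 7.46, 7.27 and 7.39 in IPEC-1, against 7.78, 8.28 and 8.15 in IPEC-J2. In both genes every IPEC-J2 array was above every IPEC-1 array, with IPEC-J2 replicate 1 the nearest to IPEC-1. The log2 difference was 0.71 for ALG8 (SE 0.122, adjusted p = 0.0223) and 0.70 for ALG9 (SE 0.152, adjusted p = 0.0420). Each was lost with the note as a block (ALG8 0.0544, ALG9 0.0699) and without single arrays: ALG8 without any IPEC-1 array or IPEC-J2 replicate 3 (up to 0.0884), and ALG9 without any array but IPEC-J2 replicate 1 (up to 0.141). The IPEC-1 means of both genes were dim, below 7.85, though all 3 IPEC-1 arrays were above the floor. This level is the 95th percentile of IPEC-1 signals above the floor on 1 array while the other 2 were at the floor. Set against that level, the rise of ALG9 was at least 1.16-fold, and for ALG8, whose IPEC-J2 mean of 7.71 was also below the corresponding level of 7.78, no fold is given.

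The remaining dolichol genes did not pass as gene means. ALG13, which with ALG14 adds the second N-acetylglucosamine, was higher on all 3 IPEC-J2 arrays by 0.29 (adjusted p = 0.0581). Its probe sets differed by 0.32 and 0.26 (adjusted p = 0.0204 and 0.357 over all probe sets). The first was 0.489 with trend and robust moderation. Its partner ALG14 was at the floor. ALG5, the synthase of dolichol phosphate glucose, had a difference of 0.41 (adjusted p = 0.423). Its brighter probe set differed by 0.28 (adjusted p = 0.0495 over all probe sets, and 0.154 with trend and robust moderation). The dimmer one, at 4.00 on IPEC-1 replicate 3, differed by 0.55 (adjusted p = 0.764). For ALG2, an early mannosyltransferase, the difference was -0.52 (adjusted p = 0.244). DPM1, the catalytic subunit of the dolichol phosphate mannose synthase, had means of 9.49 ± 0.15 (SD, n = 3) in IPEC-1 and 9.38 ± 0.06 (SD, n = 3) in IPEC-J2, with differences of 0.02 and -0.24 for its probe sets.

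The oligosaccharyltransferase, which transfers the finished chain to protein, held genes moving in both directions. Of 7 subunits, all above the floor, TUSC3 was up-regulated and OSTC and OST4 were down-regulated. No subunit but RPN1 had overlapping signals between the lines. Of all genes, 9.46% were called higher and 11.2% lower, and 16.2% lay above and 22.5% below without overlap. TUSC3 is an oxidoreductase subunit of the complexes built around the catalytic subunit STT3B. Its signals were 9.76, 9.75 and 9.56 in IPEC-1, against 10.87, 10.80 and 11.00 in IPEC-J2. The gap between the lines was wider than the range within either, and TUSC3 was 2.30-fold higher in IPEC-J2 (log2 1.20, SE 0.0834, adjusted p = 0.00220).

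OSTC belongs to the complexes built around the other catalytic subunit, STT3A. The signals of OSTC were 11.12, 11.11 and 11.21 in IPEC-1, against 10.45, 10.48 and 10.48 in IPEC-J2. Every IPEC-J2 array was lower, with hardly any spread among them, and the gene was 1.60-fold lower (log2 -0.68, SE 0.0320, adjusted p = 0.000713). OST4, a very small subunit that both kinds of complex share, had signals of 9.70, 9.45 and 9.30 in IPEC-1, against 8.38, 8.61 and 8.88 in IPEC-J2. It was 1.82-fold lower (log2 -0.86, SE 0.177, adjusted p = 0.0362). The lines did not overlap for OST4, but the call was lost without any single array (adjusted p 0.0520 to 0.109) and with the note as a block (0.0574).

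The catalytic subunits themselves did not pass the test. STT3A had signals of 8.98, 8.64 and 8.87 in IPEC-1, against 9.07, 9.68 and 9.43 in IPEC-J2, a difference of 0.56 (adjusted p = 0.128). For STT3A the adjusted p was 0.0276 after centring each array on its 75th percentile. It was 0.107 with the note as a block and 0.331 with a replicate block. Centring added 6 calls among the glycan genes, which also included DDOST (0.0293), MGAT1 (0.0248) and PIGS (0.0138). STT3B had 11.81, 11.85 and 11.83 in IPEC-1, against 11.45, 11.57 and 11.68 in IPEC-J2, a difference of -0.26 (adjusted p = 0.0559). The signals of STT3A lay above and those of STT3B below IPEC-1 on every IPEC-J2 array, which is opposite to the signs of OSTC and TUSC3, their respective partners. DDOST, a non-catalytic subunit, had 11.89, 12.01 and 11.87 in IPEC-1, against 12.15, 12.44 and 12.21 in IPEC-J2 (difference 0.34, adjusted p = 0.0743). RPN1 (ribophorin I) had a difference of -0.21 (adjusted p = 0.243).

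Other subunits, outside the symbols that defined the gene set, also went both ways. DAD1, a small structural subunit, fell from 11.94 ± 0.03 to 11.63 ± 0.04 (SD, n = 3 each), 1.24-fold lower in IPEC-J2 (adjusted p = 0.00454, but 0.128 after centring each array on its 75th percentile). TMEM258 was 1.28-fold higher (log2 0.36, adjusted p = 0.0379, but 0.0708 after centring, 0.148 with the note as a block and up to 0.118 without 1 array). KRTCAP2, which like OSTC is a subunit of STT3A complexes, had a difference of -0.33 (adjusted p = 0.0518). MAGT1, the subunit that can take the place of TUSC3, had signals of 8.85, 8.28 and 8.88 in IPEC-1, against 7.67, 8.93 and 8.94 in IPEC-J2, which overlapped (difference -0.16, adjusted p = 1). KRTCAP2 and MAGT1 were picked out after their values were seen, as relatives of OSTC and TUSC3.

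**Figure D2:**
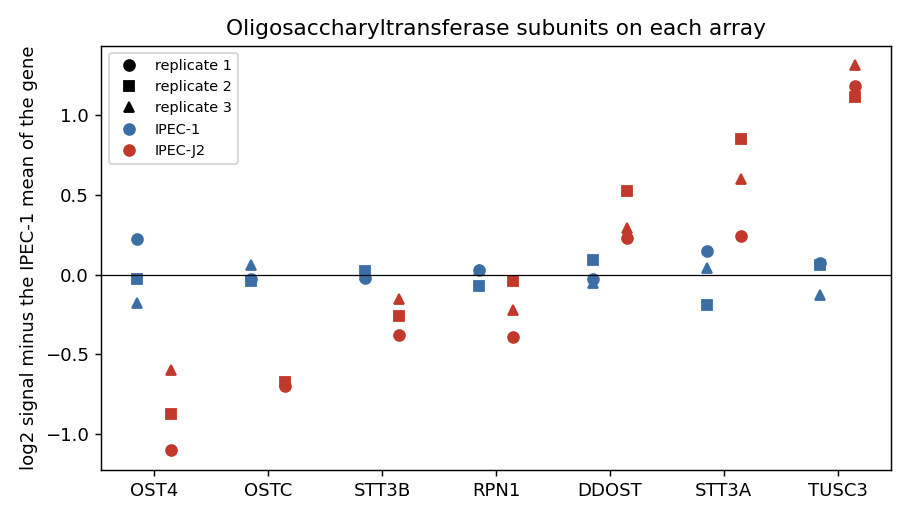
Log2 signal of 7 oligosaccharyltransferase subunits on each array, minus the IPEC-1 mean of the gene (blue IPEC-1, red IPEC-J2, with 1 symbol per replicate). The IPEC-J2 arrays lie on average 1.20 above IPEC-1 for TUSC3, whereas OSTC fell by 0.68 and OST4 fell by 0.86, and the other 4 subunits, which did not pass the test, lie between.

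Of 7 alpha-mannosidases, 5 were above the floor, with a median difference of -0.41, and limma called 0 in either direction. At an unadjusted p under 0.05, MAN2A2, MAN2B1 and MAN2C1 were lower. MAN2B1, the lysosomal enzyme, ranged from 9.41 to 9.96 in IPEC-1 and from 8.90 to 9.21 in IPEC-J2 (difference -0.57, adjusted p = 0.114). MAN2C1, a cytosolic enzyme, differed by -0.58 (adjusted p = 0.0664). For MAN2C1 it was 0.0474 with genes that never left the floor taken out, and 0.141 with the note as a block. MAN2A2, a Golgi enzyme that trims after the first branch is set, differed by -0.25 (adjusted p = 0.123). All 3 of these lay lower on every IPEC-J2 array. The Golgi enzymes MAN1A1 (-0.41, adjusted p = 0.627) and MAN1A2 (0.04, adjusted p = 1), which trim the chain before branching, overlapped between the lines.

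The branching enzymes add N-acetylglucosamine to the trimmed core and set how many antennae a glycan carries. Of 5 genes, all above the floor, MGAT4B was up-regulated and none was down-regulated, and the median difference was 0.56. MGAT4B, which starts an additional antenna, had signals of 8.91, 9.04 and 8.97 in IPEC-1, against 10.40, 10.44 and 10.45 in IPEC-J2. The values within each line were close together and the lines far apart. The difference was 2.74-fold, higher in IPEC-J2 (log2 1.46, SE 0.0388, adjusted p = 0.000137), with differences of 1.54 within note A and 1.36 within note B.

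MGAT1, which adds the first branch and opens the way to hybrid and complex glycans, had 8.30, 8.56 and 8.72 in IPEC-1, against 8.93, 9.28 and 9.04 in IPEC-J2 (difference 0.56, adjusted p = 0.0746). The lines did not overlap. MGAT2, the next enzyme, had means of 9.19 ± 0.06 and 9.08 ± 0.20 (SD, n = 3 each; adjusted p = 0.621). MGAT5 differed by 0.34 (adjusted p = 0.372). MGAT4C, a relative of MGAT4B, was at 6.94, 6.83 and 4.00 in IPEC-1, against 7.18, 6.84 and 7.79 in IPEC-J2, so that its difference of 1.35 (adjusted p = 0.446) rested on 1 array at the floor.

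Enzymes that extend the antennae with galactose and N-acetylglucosamine changed in both directions. Of 12 genes, 10 were above the floor, 2 rose and 1 fell, and the median difference was 0.16. B3GNT3 adds N-acetylglucosamine to galactose and extends core 1 O-glycans. Its signals were 10.29, 10.30 and 10.48 in IPEC-1, against 11.70, 11.97 and 11.76 in IPEC-J2. The lines did not overlap, and B3GNT3 was up-regulated 2.74-fold (log2 1.45, SE 0.0977, adjusted p = 0.00202), and the difference was 1.47 within note A and 1.40 within note B.

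B4GALT1 and B4GALT4, both galactosyltransferases, moved in opposite directions. B4GALT1, the family member that makes most N-acetyllactosamine on N-glycans and that forms lactose in milk, had 9.74, 9.65 and 9.63 in IPEC-1, against 10.61, 10.45 and 10.34 in IPEC-J2. B4GALT4 had 10.62, 10.68 and 10.78 in IPEC-1, against 9.88, 10.19 and 10.10 in IPEC-J2. Every IPEC-J2 array was higher for B4GALT1 and lower for B4GALT4. B4GALT1 was 1.73-fold higher (log2 0.79, SE 0.0813, adjusted p = 0.00641) and B4GALT4 1.55-fold lower (log2 -0.64, SE 0.0983, adjusted p = 0.0175). With the note as a block both had an adjusted p of 0.0581, and B4GALT4 was lost without IPEC-1 replicate 2 or 3 or IPEC-J2 replicate 3 (up to 0.0648).

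The other galactosyltransferases were closer between the lines. B4GALT3 differed by -0.45 (adjusted p = 0.140) with every IPEC-J2 array lower. B4GALT5, which makes lactosylceramide, had means of 10.88 ± 0.19 and 11.14 ± 0.21 (SD, n = 3 each; adjusted p = 0.362). B4GALT7 (0.06), which builds the linker of proteoglycans, and B4GAT1 (-0.03), which acts on dystroglycan, were near 0. B3GNT5, which starts the lacto-series glycolipids, differed by -0.22 (adjusted p = 0.719). B3GAT3, another linker enzyme, had a difference of 1.29 (adjusted p = 0.474), but 1 IPEC-1 array was at the floor, and within the notes the difference was 3.39 and 0.02.

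B3GALNT1, the globoside synthase, was the extension gene with the largest fitted difference. One of its probe sets was at the floor on every array. The other had 4.00, 4.78 and 6.58 in IPEC-1, against 7.92, 9.26 and 8.57 in IPEC-J2. All IPEC-J2 arrays were above all IPEC-1 arrays, and the IPEC-1 arrays spread widely near the floor. For the mean of both probe sets the difference was 1.73 (SE 0.408, adjusted p = 0.0511). It passed when genes at the floor on every array were left out (0.0243) and when the arrays were centred (0.0174). B3GALNT1 also passed without IPEC-1 replicate 3 (0.0308) and when its brighter probe set stood for the gene (0.0454). It did not pass with the note as a block (0.0733) or with a replicate block (0.119). Nor did it pass without any single array but IPEC-1 replicate 3 (up to 0.154). The brighter probe set was not called over all probe sets (adjusted p = 0.0768).

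**Figure D3:**
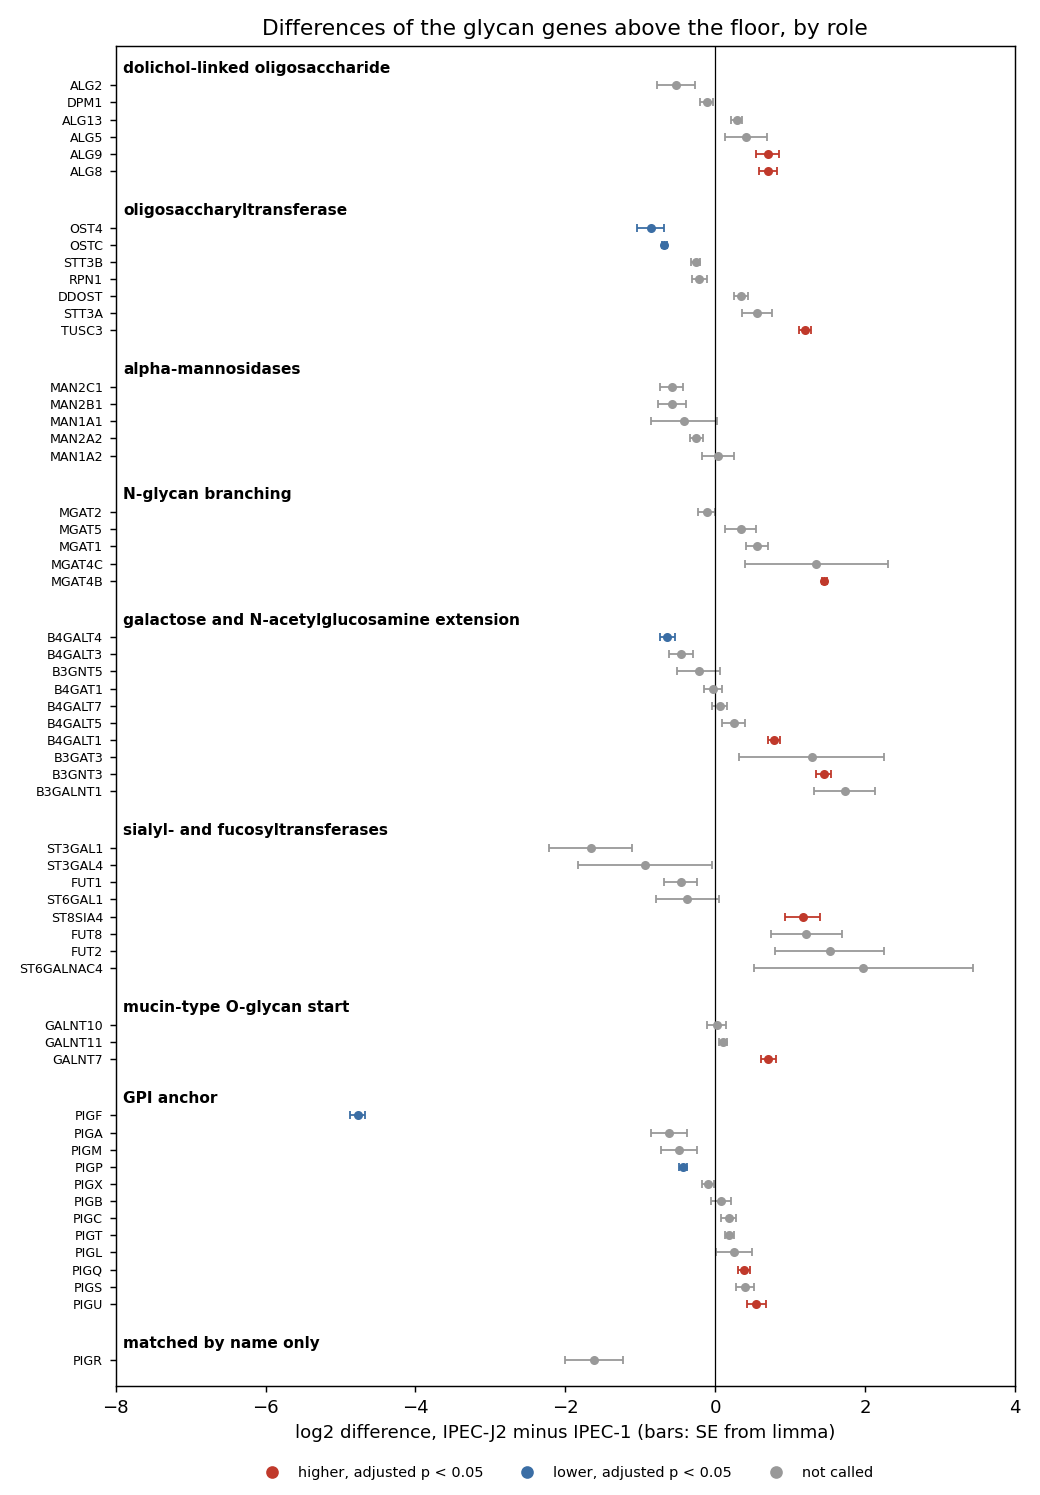
Log2 difference, IPEC-J2 minus IPEC-1, of the 57 glycan genes above the floor, grouped by role (points, with bars for the SE from limma; red higher, blue lower, grey not called). Differences lie on both sides of 0 in every role but mucin-type O-glycan start and the single PIGR, and the values of PIGF, ST8SIA4 and other genes at the floor in 1 line depend on the floor of 4.00.

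Among the sialyl- and fucosyltransferases, which cap the antennae, 1 of 11 was called, and 8 were above the floor. ST8SIA4, a polysialyltransferase, was at 4.00 on every IPEC-1 array. One of its probe sets was at the floor in IPEC-J2 also, and the other had 5.59, 7.25 and 6.16. The gene mean differed by 1.17 (SE 0.232, adjusted p = 0.0330). This p-value rests in part on IPEC-1 floor values, which have no spread, so the call is weak. The IPEC-J2 signal was dim, below the level of 7.85, so no fold is given. It was lost with the note as a block (0.0981) and without any IPEC-1 array or IPEC-J2 replicate 3 (up to 0.105), and the probe set alone had an adjusted p of 0.0513 over all probe sets.

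ST3GAL1, which puts sialic acid on the galactose of core 1 O-glycans, had 4 probe sets, which differed in size. Its brightest probe set had 9.67, 10.61 and 10.01 in IPEC-1, against 7.62, 7.63 and 7.74 in IPEC-J2. This probe set was lower on every IPEC-J2 array (log2 -2.43, SE 0.267, adjusted p = 0.0111 over all probe sets), and its IPEC-J2 mean of 7.66 was dim, so that no fold is given. Another had 4.00, 9.63 and 9.31 in IPEC-1 and only floor values in IPEC-J2 (log2 -3.65, adjusted p = 0.336), the third differed by -0.54, and the fourth was at the floor throughout. Averaged over the 4, ST3GAL1 had 5.42, 7.06 and 7.24 in IPEC-1, against 4.91, 4.91 and 4.94 in IPEC-J2 and was not called (difference -1.66, adjusted p = 0.118). Without IPEC-1 replicate 1, on which the second probe set was at the floor, the difference was -2.23 (adjusted p = 0.00166). Within the notes it was -0.48 and -2.15.

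FUT8, which adds fucose to the innermost sugar of N-glycans, had 7.32, 6.98 and 8.19 in IPEC-1, against 8.09, 9.25 and 8.81 in IPEC-J2. The lines overlapped by IPEC-1 replicate 3 and IPEC-J2 replicate 1. Its difference of 1.22 was not called (SE 0.470, adjusted p = 0.166), and its probe sets differed by 1.04 and 1.39. FUT8 passed with the note as a block (0.0490), but not with a replicate block (0.287) or without any 1 array (0.121 to 0.358). FUT2, which makes the H antigen of secretory epithelia, had only floor values in IPEC-1, whereas the IPEC-J2 arrays gave 4.00, 6.30 and 6.28. Its difference of 1.53 was not called (adjusted p = 0.243). Without IPEC-J2 replicate 1, the array at the floor, the difference was 2.29 (adjusted p = 1.36e-05). That p-value rests on IPEC-1 floor values, which have no spread, so no call was drawn from it. Without any other single array FUT2 was not called (adjusted p up to 0.478). The IPEC-J2 signals were dim, below the level of 7.85, so no fold is given. FUT1, a relative of FUT2, differed by -0.46 (adjusted p = 0.242).

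For the remaining sialyltransferases, arrays at the floor set the differences. ST6GALNAC4, which acts on O-glycans, was at 4.00, 6.15 and 4.00 in IPEC-1, against 4.00, 8.34 and 7.76 in IPEC-J2 (1.98, adjusted p = 0.468), with differences of 3.76 and -2.15 within the notes. ST3GAL4 was above the floor on IPEC-1 replicate 2 alone, at 6.82 (-0.94, adjusted p = 0.571). ST6GAL1, which caps the galactose of N-glycans, differed by -0.37 (adjusted p = 0.659, 0.0469 with the note as a block and 0.771 with a replicate block).

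**Figure D4:**
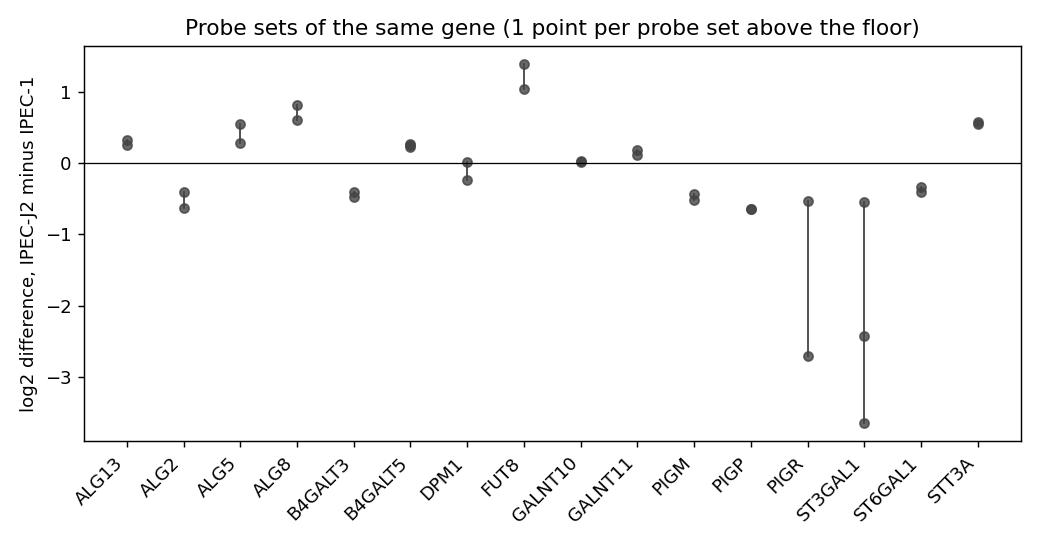
Log2 difference, IPEC-J2 minus IPEC-1 (means of 3 arrays each), of every probe set above the floor for the 16 glycan genes with 2 or more such probe sets, with a line joining probe sets of a gene. The probe sets lie on one side of 0 for 15 genes, DPM1 (0.02 and -0.24) is the exception, and those of ST3GAL1 reach from -0.54 to -3.65.

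Of 23 glycan genes with several probe sets, 16 had 2 or more above the floor, and in 15 of these the probe sets differed in one direction. The exception was DPM1. MGAT4B, B3GNT3, TUSC3, OSTC and PIGF had 1 probe set each, so this agreement does not bear on them. In 8 genes above the floor, a probe set at the floor on every array was averaged in, which made the difference of the gene smaller than that of the probe sets that gave a signal.

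The GALNT genes, which start mucin-type O-glycans by adding N-acetylgalactosamine to serine or threonine, were 3, all above the floor. GALNT7, which prefers peptides that already carry this sugar, had 10.50, 10.30 and 10.55 in IPEC-1, against 11.01, 11.22 and 11.24 in IPEC-J2. Every IPEC-J2 array was higher, by 1.63-fold on average (log2 0.71, SE 0.101, adjusted p = 0.0144). It was lost without IPEC-J2 replicate 2 or 3 (up to 0.0599). GALNT10 (8.14 ± 0.08 and 8.16 ± 0.22, SD, n = 3 each; adjusted p = 1) and GALNT11 (0.10, adjusted p = 0.308) were close between the lines.

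Of the 12 genes of the GPI anchor, all above the floor, 2 were higher and 2 lower, and the median difference was 0.13. PIGF acts with the enzymes that add ethanolamine phosphate to the anchor. It had 8.92, 8.56 and 8.83 in IPEC-1 and was at 4.00 on every IPEC-J2 array. Set against the level of 7.78 for IPEC-J2, PIGF was at least 1.99-fold lower in IPEC-J2 (adjusted p = 8.86e-05). It was measured by 1 probe set, and its fitted difference of -4.77 depends on the floor and is not a fold. Its p-value also rests in part on IPEC-J2 floor values, which have no spread.

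PIGP and PIGQ, subunits of the enzyme that starts the anchor with N-acetylglucosamine, moved in opposite directions. PIGP had gene means of 7.44, 7.46 and 7.49 in IPEC-1, against 6.92, 7.06 and 7.11 in IPEC-J2. With 1 of its 3 probe sets at the floor, the gene mean was lower in IPEC-J2 by a log2 difference of -0.43 (SE 0.0575, adjusted p = 0.0122), and the other probe sets differed by -0.65 and -0.64 (adjusted p = 0.0609 and 0.0673 over all probe sets). One of these, at 7.43 and 6.79, was dim in both lines, so that no fold is given. The call was lost with the note as a block (0.0648). PIGQ had 7.98, 8.16 and 8.07 in IPEC-1, against 8.39, 8.59 and 8.39 in IPEC-J2. It was 1.31-fold higher (log2 0.39, SE 0.0805, adjusted p = 0.0374), without overlap. The call on PIGQ was lost without any single array (0.0638 to 0.114) and with the note as a block (0.104). PIGA, the catalytic subunit of this enzyme, had a difference of -0.61 with every IPEC-J2 array lower (adjusted p = 0.171), and PIGC differed by 0.18 (adjusted p = 0.286).

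The transamidase, which attaches the finished anchor to proteins, was represented in the gene set by PIGS, PIGT and PIGU. All of them lay higher on every IPEC-J2 array, as did 16.2% of all genes. GPAA1, a subunit outside the symbols of the gene set, overlapped between the lines (difference 0.11, adjusted p = 0.293). PIGU had 9.20, 8.83 and 9.08 in IPEC-1, against 9.46, 9.57 and 9.72 in IPEC-J2, 1.46-fold higher (log2 0.55, SE 0.126, adjusted p = 0.0484). It was lost without any single array (0.0652 to 0.144) and passed with the note as a block (0.0334). PIGS differed by 0.40 (adjusted p = 0.0956). PIGT had 10.85, 10.96 and 10.74 in IPEC-1, against 11.02, 11.01 and 11.08 in IPEC-J2 (0.19, adjusted p = 0.126). The mannosyltransferase genes PIGM (-0.48, adjusted p = 0.258), PIGX (-0.09) and PIGB (0.08) were not called, and PIGL, the deacetylase, was above the floor on IPEC-J2 replicate 2 alone, by 1 of its 3 probe sets (6.24).

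PIGR came into the gene set by its symbol only. It encodes the polymeric immunoglobulin receptor, which carries IgA across the epithelium, and no enzyme of glycan synthesis. Its gene means were 5.79, 6.76 and 5.79 in IPEC-1, against 4.00, 4.73 and 4.76 in IPEC-J2. Every IPEC-J2 array was lower, but the difference of -1.62 (SE 0.388) was not called (adjusted p = 0.0533). The adjusted p was 0.0257 with genes that never left the floor taken out, and 0.197 with the note as a block. Its brighter probe set had 7.58, 7.93 and 7.59 in IPEC-1, against 4.00, 5.46 and 5.52 in IPEC-J2 (adjusted p = 0.0398 over all probe sets).

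Other genes of glycan pathways were looked at in 5 lists outside the gene set. The lists were chosen with earlier results of these data known, so their shares only describe them. Of 96 listed genes, 56 were on the array and 54 above the floor. Of the 56, 9 were higher (16.1%, beside 9.46% of all genes) and 2 lower (3.57%, beside 11.2% of all genes). The list of glucosidases, lectin chaperones and disposal of misfolded glycoproteins had 5 of 9 genes higher (55.6%, beside 9.46% of all genes) and 0 lower, with a median difference of 0.56 beside -0.05 for all genes above the floor. These were CANX (calnexin, at least 1.45-fold with its dim probe sets set to the level, adjusted p = 0.0198), PDIA3 (the disulfide isomerase that works with calnexin, at least 1.44-fold likewise, 0.0345), EDEM2 (a mannosidase that marks glycoproteins for disposal, 1.62-fold, 0.0272), GANAB (the catalytic subunit of glucosidase II, 1.51-fold, 0.00800) and MCFD2 (a partner of a cargo lectin, 1.48-fold, 0.0169). Of these, GANAB alone passed without any 1 array (up to 0.0368), and EDEM2 alone passed with the note as a block (0.0210). The rest of this list was not called: CALR (calreticulin) differed by -0.17 (adjusted p = 0.448) and PRKCSH by -0.03. LMAN2 differed by 0.51 (adjusted p = 0.231) and ERLEC1 by 0.37 (adjusted p = 0.0908).

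In the supply of sugar nucleotides, 1 of 22 genes was higher and 1 lower (4.55% each, beside 9.46% and 11.2% of all genes). CMAS, which activates sialic acid, rose from 8.88 ± 0.27 to 10.23 ± 0.16 (SD, n = 3 each), 2.56-fold (adjusted p = 0.0105, and up to 0.0501 without 1 array). GMDS, which makes the precursor of activated fucose, was lower over its 2 probe sets, 1 of them at the floor (log2 -0.61, adjusted p = 0.00702, and 0.0666 with the note as a block). Of 8 nucleotide sugar transporters, 2 were higher (25.0%, beside 9.46% of all genes). SLC35D2, a Golgi carrier of UDP-N-acetylglucosamine, had 7.17, 7.22 and 7.25 in IPEC-1, against 8.13, 8.15 and 8.16 in IPEC-J2 (log2 0.93, adjusted p = 0.000131). Its IPEC-1 signal was dim, and set against the level SLC35D2 was at least 1.23-fold higher. SLC35C1, the Golgi carrier of activated fucose, had only floor values in IPEC-1, whereas the IPEC-J2 arrays gave 6.97, 7.44 and 7.09 (adjusted p = 0.000535), a dim signal for which no fold is given. The p-value of SLC35C1 rests in part on the IPEC-1 floor values, which have no spread. Of 10 genes of core 1 O-glycans, GPI transfer, proteoglycan linkers and glycolipids, limma called 0. At an unadjusted p under 0.05, C1GALT1C1 (0.62), a chaperone of core 1 synthesis, and POFUT1 (0.32), which puts fucose on proteins, were higher. The lists were small, and RNA signals do not show enzyme activity or the glycans made.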

How the data were processed

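Total RNA (500 ng per array) was hybridised to 6 Affymetrix arrays. The deposited table holds 24123 probe sets. The authors made the log2 signals with GCOS 1.1.1 and PLIER, per the submitters' processing notes. The methods describe global scaling, then background correction, normalization and probe set summary in R, and do not say which of these steps the deposited values hold. The log base is not stated, and log2 was read from the floor of 4.00. No detection calls were used, and the number of arrays limits precision. After 124 controls were removed, 10069 probe sets with 1 symbol in the platform annotation were averaged per symbol to 6765 genes, and 198 with several symbols and 13732 unnamed ones were left out. All 95 probe sets of the glycan genes carried the same symbol in RefSeq. Genes were fitted with limma 3.58.1 in R 4.3.3 (lmFit, eBayes, no block) with p-values adjusted over all genes by Benjamini-Hochberg and a cutoff of 0.05. The script was tested on simulated data. Probe sets were fitted alike over 23999. An exact permutation test of 3 against 3 cannot go below p = 0.1. Levels for bounds (7.85 in IPEC-1, 7.78 in IPEC-J2) are the 95th percentile of signals above the floor on 1 array where the other 2 arrays of that line were at the floor, and a bound sets the brighter mean against the level of the dimmer line. The methods describe independent experiments, so p-values measure the spread between cultures of a line. Arrays with the same replicate number did not deviate together (r -0.0646, -0.106 and 0.0552), so the numbers were not used as pairs. For arrays with the same culture note, r was 0.0605 (note A) and 0.173 (note B). The note was left out of the main fit and used as an alternative. The genes and lists were chosen with earlier results of these data known. Genes were named if called, at the floor in 1 line, over 1 in log2 difference, or the brightest not called of a role, and others were added after their values were seen. Alternatives were quantile normalization, centring at the 75th percentile, the brightest of a gene's probe sets, an added 16, filters on floor and dim genes (mean under 5), trend and robust moderation, the methods' t-test, blocks by replicate number or culture note, and leaving out each array.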

Additional observations from a re-analysis of the deposited data

How the results depend on the processing

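The 10 higher glycan genes became 16 with the methods' t-test unadjusted and 6 after Benjamini-Hochberg adjustment, 5 with a replicate block and 6 with the culture note as a block. Leaving out 1 array gave 4 (without IPEC-J2 replicate 3) to 11 (without IPEC-J2 replicate 1), with 5, 5 and 6 without IPEC-1 replicates 1, 2 and 3 and 6 without IPEC-J2 replicate 2. The 5 lower genes became 10 with the brightest probe set per gene, 11 with the unadjusted t-test, 3 with a replicate block, and 3 (without IPEC-1 replicate 2 or 3) to 6 without 1 array. With notes A and B only, 4 arrays, limma called 0 higher and 0 lower, and 11 and 8 had an unadjusted p under 0.05. The counts under the remaining alternatives were within 1.5 times, with 9 to 15 higher and 4 to 7 lower. The higher count was 15 with centring, which moved the median of all genes from -0.05 to 0.00. GALNT10 turned from 0.02 to -0.09 with notes A and B only, -0.01 without IPEC-1 replicate 1 and -0.08 without IPEC-J2 replicate 2 (-0.08 to 0.14 without 1 array). For the alpha-mannosidases, with 0 calls by limma, the methods' t-test gave 3 lower unadjusted and 0 after adjustment. The shares of all genes called under each alternative are not given here. The counts therefore do not show whether the glycan genes changed more than all genes. The cause of these changes was not tested. Signals near the floor give no order between arrays, and log2 differences of genes with a probe set at the floor understate or depend on it.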
